A study of Mus musculus with 2 samples.

Results

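The effector molecules described here are 9 genes whose products regulatory T (Treg) cells use to restrain other immune cells or to promote tissue repair: Il10, Ebi3, Gzma, Gzmb, Areg, Fgl2, Nt5e, Entpd1 and Penk. They were taken by name from a list of suppressor and repair genes, and all 9 are among the 16098 genes of the count table. For each gene the level and the share of cells with a transcript were compared between control and rescued Treg cells, and the genes were then compared with each other cell by cell.

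Treg cells act through several routes that do not depend on each other. They secrete inhibitory cytokines, they can release granzymes into target cells, they convert extracellular ATP through AMP to adenosine with a pair of surface enzymes, and in tissues they release growth factors that act on epithelial and stromal cells. Most of these products are low in resting Treg cells of lymphoid organs and are made after activation.

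The study asked whether Treg cells that regain Foxp3 during autoimmune disease persist as a stable population, and it profiled them by droplet-based single-cell RNA-seq. Both libraries held Treg cells sorted as GFP+ from spleen and lymph node of male C57BL/6 mice, 7 months of age by the labels, all given 4-hydroxytamoxifen once, 14 days after birth, and carrying Cd4creERT2, a tamoxifen-inducible Cre made in Cd4-expressing cells. Control cells came from 5 pooled Foxp3DTR-GFP/y mice, in which Foxp3 is intact and tagged with a diphtheria toxin receptor fused to GFP. Rescued cells came from 4 pooled Foxp3LSL/y mice, in which a loxP-flanked Thy1.1-STOP cassette silences Foxp3 until Cre removes it. A tdTomato transcript, the product of a Cre reporter allele, was counted in both libraries. The count table held 3634 control and 3390 rescued cells, with 15446201 and 15537656 unique molecular identifiers (UMIs, each a counted transcript molecule) and medians of 3739.5 and 3846.5 UMIs per cell. Of the cell barcodes, 3 occurred in both libraries. Of a list of 5 Treg marker genes, each had a UMI in 14.3% to 70.6% of control and 39.9% to 85.4% of rescued cells thinned to 2000 UMIs. Foxp3 was the lowest of them in control cells, at 14.3%, and was in 53.7% of rescued cells.

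With 1 library of pooled mice per group there is no replicate and no test, and genotype cannot be told apart from library. Levels are given as CPM, the UMIs of a gene scaled to a library total of 1000000 UMIs, and differences as log2 ratios of rescued over control. Brackets hold 95% intervals that cover counting error only; molecules of 1 cell are not independent, so for genes carried by a few cells the intervals are too narrow. Shares of cells were read after each cell had been thinned at random to 2000 UMIs, which left 3569 control and 3357 rescued cells. The share of cells and the UMIs per positive cell are both given, since a level combines them.

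All 9 effectors were higher in the rescued library, as were 54.9% of all genes with at least 100 UMIs, and 5 of them, Il10, Gzma, Gzmb, Areg and Fgl2, were at least 2-fold higher. Over those 9779 genes, 1.72% were at least 2-fold higher in rescued cells and 0.992% at least 2-fold lower, and 0 of the 9 effectors were in the second class. Ebi3 lay just under the 2-fold limit, at 1.98-fold, and Gzmb, at 2.99-fold, was the nearest above it. The median log2 ratio of the 9 effectors was 1.58, against 0.024 over all genes. Ebi3, Fgl2, Nt5e and Entpd1 were spread over many cells with few molecules each. Gzmb, Areg and Penk in both libraries, and Il10 and Gzma in rescued cells, were carried by few cells, some of which held many molecules; in control cells Il10 and Gzma were rare and no cell held more than 5 UMIs of either.

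**Figure D1:**
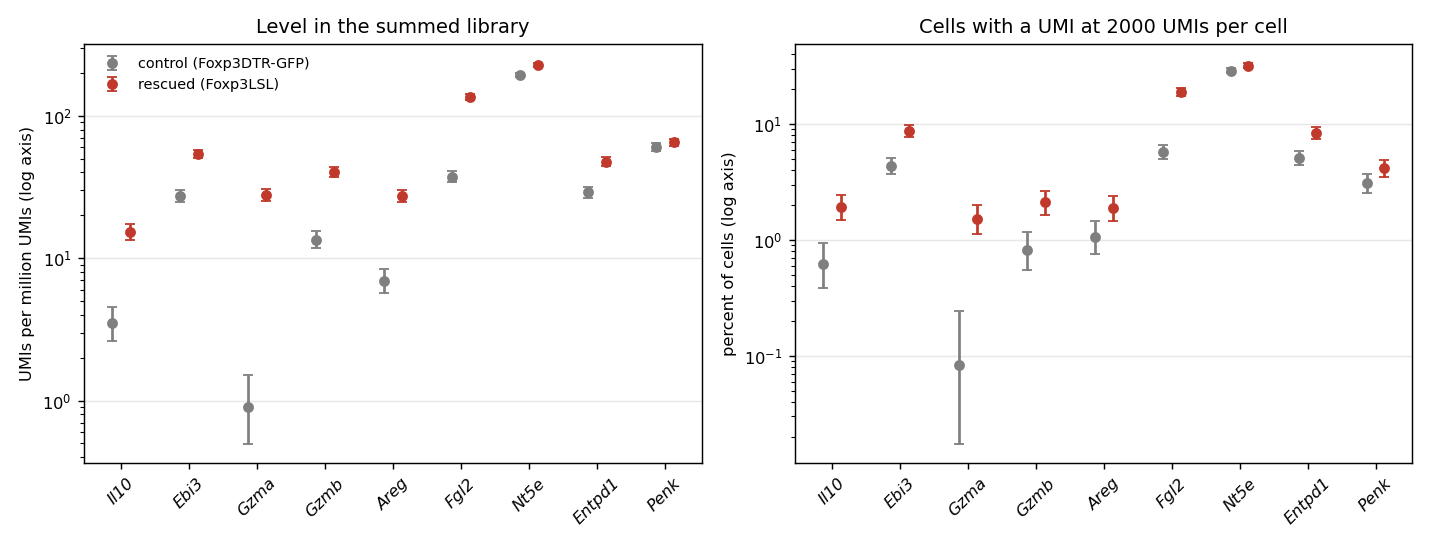
Left, CPM of each effector in the summed control (grey) and rescued (red) library; right, percent of cells with at least 1 UMI after thinning to 2000 UMIs per cell; both axes are logarithmic and bars are 95% counting intervals. The 2 libraries lie closest for Nt5e and Penk and farthest apart for Gzma, at 0.906 and 27.9 CPM.

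Of the cytokines, Il10 (chr1:131019845-131024974, plus strand; all gene positions are GRCm38) encodes interleukin 10, which restrains antigen-presenting cells and effector T cells. It had 54 UMIs in control cells (3.496 CPM) and 238 UMIs in rescued cells (15.3 CPM), a log2 ratio of 2.13 [1.70 to 2.59]. Cells with an Il10 UMI made up 0.616% of thinned control cells and 1.94% of thinned rescued cells. In control cells the highest count in a cell was 4 UMIs, and 1 cell had 3 or more. In rescued cells 25 cells had 3 or more UMIs and the highest count was 40. Both the number of Il10 cells and the UMIs per positive cell, 1.35 in control and 2.16 in rescued cells as counted, were thus higher. As counted, 40 control and 110 rescued cells had an Il10 UMI. The 1% of cells with the most Il10 held 92.6% of its UMIs in control and 68.1% in rescued cells. Without these cells the log2 ratio was 4.24, but it then rested on the few control UMIs left.

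Ebi3 (chr17:55952640-55957022, plus strand) encodes the subunit that interleukin 27 and interleukin 35 share. Its UMIs numbered 420 in control cells (27.2 CPM) and 837 in rescued cells (53.9 CPM), a log2 ratio of 0.99 [0.82 to 1.16]. The share of cells with Ebi3 was 4.37% in control and 8.73% in rescued cells, while the UMIs per positive cell were 1.36 and 1.39. The difference in Ebi3 was thus seen in the share of cells with a UMI. At such low counts more transcript in each cell would also raise that share. More Ebi3 cells and more Ebi3 per cell therefore cannot be told apart here. Neither partner chain of Ebi3, Il12a or Il27, is among the genes of the count table.

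The granzymes are serine proteases stored in cytotoxic granules. Gzma (chr13:113093825-113100981, minus strand) had 14 UMIs in 8 control cells (0.906 CPM) and 433 UMIs in 81 rescued cells (27.9 CPM), a log2 ratio of 4.94 [4.18 to 5.83]. This was the greatest log2 ratio of the 9. After thinning, Gzma was found in 3 control cells, 0.0841%, and in 1.52% of rescued cells. The control share was as low as that of the macrophage gene Lyz2, which had a UMI in 0.0841% of control and 0.179% of rescued cells, and the B-cell gene Cd79a was found in 0.504% and 0.268%. Genes of other cell types ranged from 0 to far higher shares, so they give no single background level, and Gzma in control cells is not read here as expression. A single rescued cell held 84 Gzma UMIs. All control UMIs of Gzma were in the 1% of cells with the most, so that no ratio could be computed without them.

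Gzmb (chr14:56258838-56262260, minus strand) had 208 UMIs in control cells (13.5 CPM) and 626 UMIs in rescued cells (40.3 CPM), a log2 ratio of 1.58 [1.35 to 1.81]. The share of cells was 0.813% in control and 2.11% in rescued cells. Gzmb was held by few cells in both libraries, since the 1% of cells with the most Gzmb held 92.8% of its UMIs in control and 79.1% in rescued cells. The highest counts were 35 UMIs in a control cell and 97 in a rescued cell. Without the 1% of cells with the most Gzmb in each library the log2 ratio was 3.12, but it then rested on the few control UMIs left. Without the single richest cell of each library it was 1.60 [1.35 to 1.86]. Gzmb has neighbouring granzyme genes of similar sequence, and reads shared with them cannot be separated here; of these, Gzmc had 29 control and 33 rescued UMIs. The pore-forming protein that carries granzymes into target cells, perforin (Prf1), did not go with the granzymes: it had 50 UMIs in control and 46 in rescued cells, a log2 ratio of -0.13 [-0.74 to 0.48].

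Areg (chr5:91139599-91148432, plus strand) encodes amphiregulin, an epidermal growth factor receptor ligand through which Treg cells act on tissue repair. Its level was 6.93 CPM in control and 27.4 CPM in rescued cells, but the share of cells differed less, at 1.06% [0.755 to 1.46] and 1.88% [1.45 to 2.39]. UMIs per positive cell were 1.67 in control and 3.49 in rescued cells as counted. A single rescued cell held 109 UMIs, 25.6% of the library's Areg, and the control maximum was 11 UMIs. Without the 1% of cells with the most Areg in each library, the log2 ratio was 1.73.

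Fgl2 (chr5:21372642-21378374, plus strand) encodes fibrinogen-like protein 2, a secreted inhibitor of dendritic cells and B cells. It had 578 UMIs in control cells (37.4 CPM) and 2098 UMIs in rescued cells (135 CPM), a log2 ratio of 1.85 [1.72 to 1.99]. Among the effectors at least 2-fold higher it was the only one spread over many cells: 5.77% of control cells and 18.9% of rescued cells had a UMI, and the 1% of cells with the most Fgl2 held 12.7% of its UMIs in rescued cells. Fgl2 lies within Ccdc146, which is read from the opposite strand and had 9 control and 12 rescued UMIs.

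The ectoenzymes act in series, Entpd1 (CD39, chr19:40612366-40741602, plus strand) from ATP to AMP and Nt5e (CD73, chr9:88327197-88372092, plus strand) from AMP to adenosine. Nt5e was the effector found in the most cells, 28.8% of control and 32.0% of rescued cells, with 194 and 227 CPM and a log2 ratio of 0.23 [0.16 to 0.30]. Entpd1 had 29.0 CPM in control and 47.6 CPM in rescued cells, a log2 ratio of 0.72 [0.54 to 0.89], and was found in 5.10% and 8.37% of cells. No cell of either library held more than 4 Entpd1 UMIs. The enzymes thus differed between the libraries by unequal amounts, 1.17-fold for Nt5e [1.11 to 1.23] and 1.64-fold for Entpd1 [1.46 to 1.85].

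Penk (chr4:4133531-4138819, minus strand) encodes proenkephalin, the precursor of the opioid peptides called enkephalins. It had 927 UMIs in control cells (60.01 CPM) and 1008 UMIs in rescued cells (64.9 CPM), a log2 ratio of 0.11 [-0.018 to 0.24], and was the only effector whose interval held 0. The share of cells was 3.08% [2.54 to 3.70] in control and 4.14% [3.49 to 4.87] in rescued cells. Penk cells were the richest in their effector in the control library, with 6.18 UMIs per positive cell as counted and a maximum of 115, against 4.52 and 45 in rescued cells. Without the 1% of cells with the most Penk, the log2 ratio was 0.80, and without the single richest cell of each library it was 0.24 [0.10 to 0.37]. The 1% of cells with the most Penk held 74.4% of its UMIs in control and 58.8% in rescued cells, so the value of 0.80 rests on unequal parts of the 2 libraries. Without only the richest cells the totals still differed little.

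Of the promoters of the 9 genes, 7 genes had a sequence in the RefSeq table used here (250 bases before to 50 after the start, GRCm38.p6); Il10 and Penk were not matched. They were searched on both strands for the cyclic AMP response element TGACGTCA, its shorter core TGACGT, the AP-1 site TGANTCA and the TATA box TATAAA, elements read by factors that act after T cell receptor stimulation or by the basal machinery. The core lies within the full element. The 80 bases before the start are shown, 5′ to 3′, for the 3 genes with a full element or an AP-1 site, with the matches in capitals.
Areg (chr5:91139519-91139598, plus strand): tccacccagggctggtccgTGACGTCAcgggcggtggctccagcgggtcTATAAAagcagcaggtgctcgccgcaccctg
Fgl2 (chr5:21372593-21372672, plus strand): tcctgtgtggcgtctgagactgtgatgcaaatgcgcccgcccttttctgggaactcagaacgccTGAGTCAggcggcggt
Gzmb (chr14:56262335-56262414, minus strand): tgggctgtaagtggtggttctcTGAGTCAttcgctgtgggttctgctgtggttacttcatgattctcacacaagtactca
The Areg element began 61 bases and its TATA box 31 bases before the start. The AP-1 letters began 16 bases before the start in Fgl2 and 58 bases before it in Gzmb. The starts are those of RefSeq, which for Fgl2 and Gzmb differ from the gene positions given above. By those positions the AP-1 letters of Fgl2 lie within the gene. Among 32851 promoters of the same length, 1.79% held the full cyclic AMP element, 7.81% the AP-1 letters, 7.51% the core and 13.6% the TATA box. The core also occurred in Gzmb, 4 bases after the RefSeq start but upstream of the gene position given above, and in 1 of the Entpd1 promoters. These are matches of letters only, and no binding was measured.

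To see in which Treg states the effectors were made, the cells were grouped into 11 clusters by their transcriptomes with the 9 effectors, tdTomato and Foxp3 left out. The clusters are called here by their leading genes. Because single cells held many molecules of some effectors, values that they move are also given without the richest cell of each library. Of all clusters, cluster 1, led by Il1r2, Nr4a1 and Egr2, genes induced by T cell receptor stimulation, held the most Areg and Penk UMIs: 61.7% of the Areg UMIs of the rescued library and 40.2% of those of the control library, and 47.3% and 51.2% of the Penk UMIs. Within cluster 1 Areg stood at 28.8 CPM [20.8 to 38.7] in control and 119 CPM [105 to 134] in rescued cells. The rescued cell with 109 Areg UMIs was in this cluster; without the richest cells the levels were 21.5 CPM [14.7 to 30.3] and 69.7 CPM [59.1 to 81.6], and the shares of the Areg UMIs 33.3% and 48.6%. In control cells cluster 0 had the highest Areg level, 37.3 CPM [24.8 to 53.9], with an interval that overlapped that of cluster 1. Penk went the other way in cluster 1, with 318 CPM [290 to 348] in control and 215 CPM [197 to 236] in rescued cells, or 242 CPM [218 to 268] and 197 CPM [179 to 216] without the richest cells. In cluster 3, led by Ccl5, Klrg1 and Asb2, Penk was likewise higher in control cells, at 244 CPM against 55.4 CPM.

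Il10 was highest in cluster 10, led by Lag3, Ccr2 and Lztfl1, at 80.3 CPM in control and 110 CPM in rescued cells. It was next highest in cluster 0, led by Pdcd1, Nav2 and Lag3, at 14.7 CPM and 63.0 CPM. The rescued cell with 40 Il10 UMIs was in cluster 0, and without the richest cells its levels were 9.48 CPM [3.81 to 19.5] and 32.3 CPM [23.2 to 43.8]. Nt5e was highest in the same clusters, at 449 and 455 CPM in cluster 0 and at 532 and 479 CPM in cluster 10, with overlapping intervals between libraries. Fgl2 also peaked in cluster 10, at 191 and 326 CPM, followed by cluster 3 at 162 and 215 CPM.

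The granzymes were placed differently from each other. In rescued cells Gzmb was highest in cluster 8, led by Ccr2, S100a4 and S100a6, at 165 CPM, where Gzma stood at 8.49 CPM. Gzma was highest in cluster 10, at 117 CPM, where Gzmb stood at 24.6 CPM. In control cells cluster 10 had the highest Gzmb level, 222 CPM, from 58 UMIs in 56 cells, and no Gzma UMI. Of these, 35 UMIs were in 1 cell, without which cluster 10 stood at 89.7 CPM [56.9 to 135] and cluster 8 was higher, at 113 CPM [90.6 to 140]. In control cells Entpd1 ranged from 16.7 to 49.0 CPM over the clusters, the narrowest ratio of the 9. Cluster 4, led by Igfbp4 and Ly6c1, a resting profile, held 1393 control and 102 rescued cells, and in its control cells Nt5e (103 CPM) and Entpd1 (23.4 CPM) led, with Fgl2 next at 6.96 CPM.

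**Figure D2:**
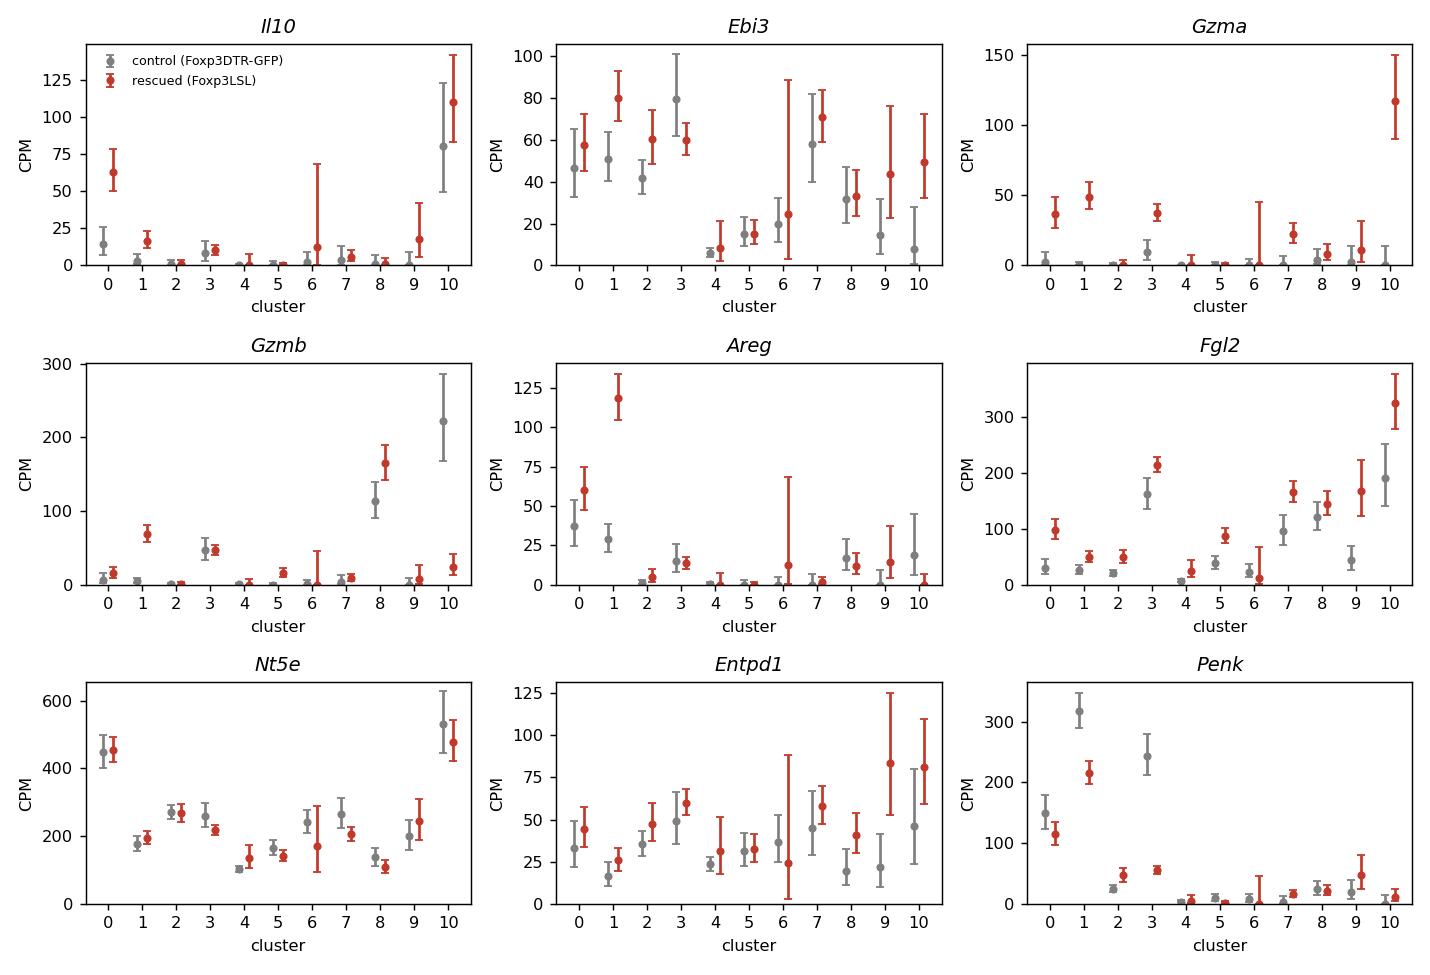
CPM of each effector in the 11 clusters, control in grey and rescued in red; the vertical axes are linear, start at 0 and differ between genes, and bars are 95% counting intervals. Penk and the Areg of rescued cells peak in cluster 1, control Areg in cluster 0, Gzmb of rescued cells in cluster 8, and Il10 and Gzma of rescued cells in cluster 10; cluster 6 has 25 rescued cells and wide intervals.

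Because the libraries were distributed differently over the clusters, the ratios were also computed with every cluster given the same weight in both libraries. The median log2 ratio of the 9 effectors was then 0.40 in place of 1.58, and 3 effectors, Gzma (3.24), Il10 (1.15) and Areg (1.04), were at least 2-fold higher in place of 5. Fgl2 stood at 0.77, Entpd1 at 0.40, Gzmb at 0.36 and Ebi3 at 0.23. Nt5e reversed, to -0.067, and Penk stood at -0.85. Without the richest cell of each library Gzma alone stayed at least 2-fold higher, at 3.93, with Il10 at 0.95 and Areg at 0.78. The clusters were built from genes that themselves differ between the libraries, so this is a description of where the difference lies. Counted over clusters with at least 20 UMIs of the gene, Fgl2 was higher in rescued cells in 10 of 11, with the interval of the ratio above 1 in 9, and Gzma in 5 of 5. Nt5e was higher in rescued cells in 4 of 11 clusters and Penk in 4 of 8.

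**Figure D3:**
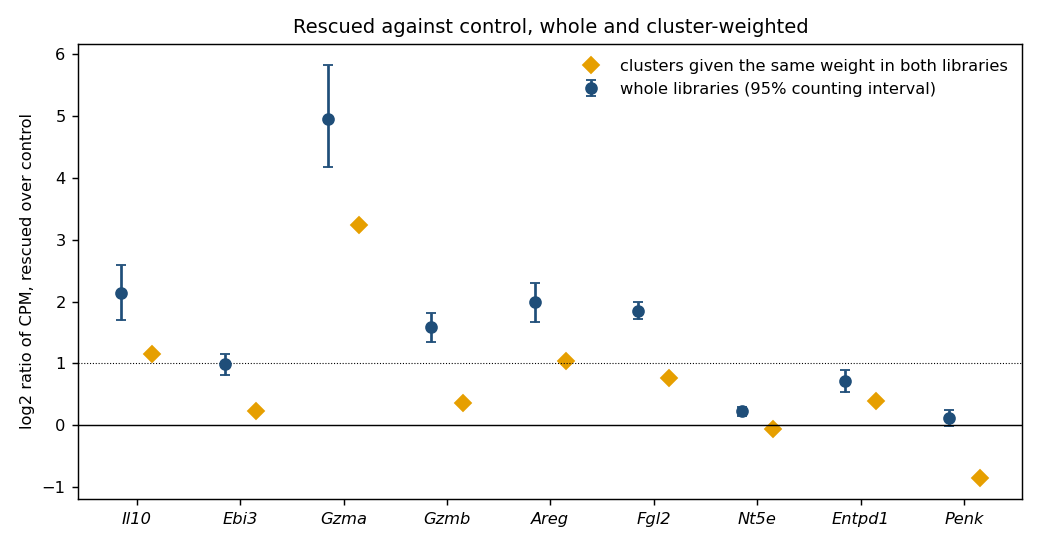
Log2 ratio of CPM, rescued over control, for each effector in the whole libraries (blue circles, with 95% counting intervals) and with each cluster weighted by its share of all cells in both libraries (orange diamonds, no interval); the dotted line marks 2-fold. The diamond lies below the circle for all 9 effectors, and below 0 for Nt5e and Penk.

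Whether effectors shared cells was read from the 36 pairs of the 9 genes in the thinned cells, against the number of cells expected if the 2 genes were independent within a library. A pair was read when at least 3 cells were expected, which held for 13 pairs in control and 26 in rescued cells. In each library 5 pairs were found together at least 1.5-fold more often than expected, and 0 pairs at least 1.5-fold less often. The pairs read thus shared cells or were near independence, and none of them avoided each other by that measure at this depth. The other 23 control and 10 rescued pairs, all with Il10, Gzma, Gzmb or Areg, could not be read. Pairs of other genes were not counted, so no background share stands beside these counts.

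Ebi3 and Penk were the only pair above 1.5-fold in both libraries. They were together in 17 control cells where 4.81 were expected, 3.54-fold [2.06 to 5.66], and in 25 rescued cells where 12.1 were expected, 2.06-fold [1.33 to 3.04]. The rescued value depended on the reading: it was 1.48 as a mean over all thinnings, and 1.19 [0.909 to 1.53] in the cells as counted within bins of depth, where 61 cells were seen against 51.3 expected. The control value was 2.04 as counted and 1.74 with the expectation taken within clusters. In rescued cells Il10 and Fgl2 were together in 25 cells against 12.3 expected, 2.04-fold [1.32 to 3.01], and 1.44-fold [1.10 to 1.86] as counted. Gzmb and Fgl2 were together in 22 rescued cells against 13.4 expected, 1.64-fold [1.03 to 2.48], but the value was 1.41 as counted, 1.36 [0.85 to 2.05] within clusters and 0.924 at 1000 UMIs per cell. In control cells both pairs had fewer than 3 expected cells, but 5 and 9 cells were seen where 1.27 and 1.67 were expected.

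The remaining pairs above 1.5-fold in rescued cells both held Entpd1, with Gzmb at 11 cells against 5.94 expected and with Il10 at 9 against 5.44, and both intervals held 1. In control cells they were Ebi3 with Fgl2 (20 cells against 9.004), Ebi3 with Entpd1 (16 against 7.96), Areg with Nt5e (17 against 10.96) and Il10 with Nt5e (11 against 6.34), of which the intervals of the last 2 held 1. The ectoenzymes, which act in series, were together in 69 control cells where 52.5 were expected, 1.31-fold [1.02 to 1.66], and in 94 rescued cells where 89.8 were expected, 1.05-fold [0.846 to 1.28].

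Gzma and Gzmb were in no thinned cell together, but only 1.08 rescued cells were expected, so this cannot show that they exclude each other. In the cells as counted, with the expectation taken within 20 bins of depth, both granzymes were in 8 rescued cells where 3.02 were expected, 2.65-fold [1.14 to 5.22]. By that reading Il10 and Gzmb were together in 12 rescued cells against 4.97 expected and in 5 control cells against 1.05. Gzmb and Nt5e were the pair read furthest below independence in rescued cells, with 19 cells against 22.7 expected, and the interval, 0.504 to 1.31, held 1.

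Counted per cell, 59.99% of thinned control cells and 42.6% of thinned rescued cells had a UMI of none of the 9 effectors, and 1.32% of control and 4.05% of rescued cells had 3 or more. Cells with 3 or more numbered 47 in control, 2.59-fold more than expected under independence [1.91 to 3.45], and 136 in rescued cells, 1.47-fold more [1.23 to 1.74]. With the expectation taken within clusters the ratios were 1.25 and 1.31, so part of the excess lies between clusters. The highest number in a cell was 4. The most frequent combination was Ebi3, Fgl2 and Nt5e in both libraries, in 7 control and 24 rescued cells, followed in rescued cells by Fgl2, Nt5e and Entpd1 in 19. The 136 rescued cells held 49 different combinations.

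The tdTomato reporter marks cells in which Cre has acted, and its UMIs were used to divide each library. Of 3390 rescued cells 1496 had 0 tdTomato UMIs, and of 3634 control cells 1347. By the paper's flow cytometry most rescued and few control Treg cells carried the reporter at this time. The UMI classes are therefore not the labelling status of a cell. In control cells with 4 or more tdTomato UMIs against cells with none, Gzmb was higher by a log2 ratio of 2.11 [1.41 to 2.84], Il10 by 1.82 [0.51 to 3.25] and Penk by 1.41 [1.10 to 1.73]. In rescued cells the same contrast gave 1.05 [0.77 to 1.32] for Gzmb, 0.66 [0.23 to 1.09] for Il10 and -0.24 [-0.47 to -0.0017] for Penk, while Areg had the highest value, 1.49 [1.15 to 1.84]. In rescued cells these values rested on single cells: without the richest cell of each gene Areg stood at 0.53 [0.14 to 0.92], Gzmb at 0.45 [0.14 to 0.75] and Il10 at -0.063 [-0.56 to 0.43]. In control cells Il10 was then at 1.41 [-0.0016 to 2.91]. The richest control cells of Gzmb and Penk were in neither class compared, so leaving them out could not change those 2 values. Fgl2 and Ebi3 did not depart from 0 in rescued cells beyond counting error (0.022 and 0.043). These contrasts were less stable than the comparison of libraries: with cells thinned to 2000 UMIs and 2 or more tdTomato UMIs against none, Penk in control cells stood at -0.28, Gzmb in rescued cells at 0.11 and Areg in rescued cells at 2.46. Cells with 4 or more tdTomato UMIs were also deeper, with medians of 4744 against 3508 UMIs in control and 4570 against 3603 UMIs in rescued cells.

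**Figure D4:**
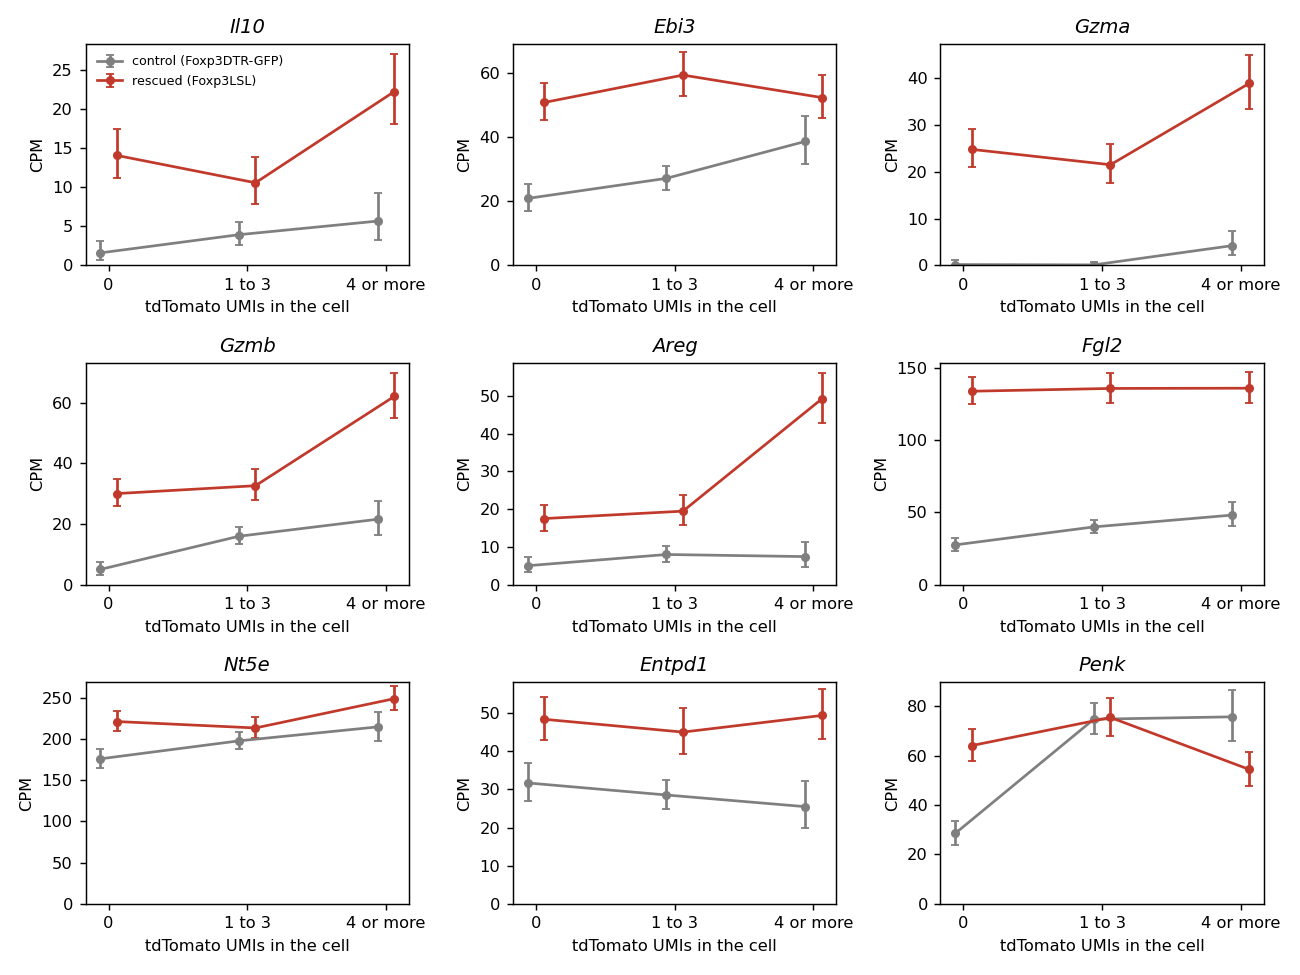
CPM of each effector in cells with 0, 1 to 3, or 4 or more tdTomato UMIs, control in grey and rescued in red, with 95% counting intervals on linear axes that start at 0 and differ between genes; lines join the classes of a library. Rescued cells lie above control cells in every class for every effector but Penk. Penk crosses, at 28.5 and 64.1 CPM with 0 tdTomato UMIs and at 75.7 and 54.4 CPM in the top class.

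In cells with 4 or more tdTomato UMIs, rescued cells were higher than control cells for 8 effectors, from 0.21 for Nt5e to 3.19 for Gzma on the log2 scale, and Penk was lower, at -0.48 [-0.75 to -0.21]. In cells with 0 tdTomato UMIs all 9 were higher in rescued cells, Penk by 1.17. Foxp3 itself was counted deeply only in rescued cells, at 468 CPM against 80.9 CPM in control cells, and it divided the rescued cells differently. In rescued cells with 4 or more Foxp3 UMIs against none, Gzmb was higher by a log2 ratio of 2.53 [2.10 to 2.98], Gzma by 1.14 [0.78 to 1.52] and Fgl2 by 0.78 [0.60 to 0.97]. Nt5e stood at -0.22 [-0.35 to -0.083], and the intervals of Areg and Penk held 0. Without the richest cell of each gene Gzmb stood at 2.08 [1.64 to 2.54] and Gzma at 0.50 [0.10 to 0.90], and Areg at 2.04 [1.48 to 2.63], since the cell with 109 Areg UMIs had no Foxp3 UMI. Rescued cells with 4 or more Foxp3 UMIs were also deeper, with a median of 4988 UMIs against 3454 in those with none. All cells were sorted as GFP+, so a cell with 0 Foxp3 UMIs may still express Foxp3. In control cells 9 cells had 4 or more Foxp3 UMIs, too few for this reading.

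The genes whose levels went most closely with each effector were ranked by the ratio of CPM between thinned cells with and without it, taking the lower bound of its interval and the smaller bound of the 2 libraries. For Gzmb the first 5 were Ccr2, S100a4, S100a6, Lgals3 and Klrg1: Ccr2, a chemokine receptor for inflamed tissue, was 14.3-fold higher in Gzmb cells of the control library and 9.90-fold higher in those of the rescued library. For Areg they were Nr4a3, Egr2, Tagap, Nr4a1 and Il1r2, with Nr4a3, an immediate early gene of T cell receptor signalling, 12.3-fold and 17.2-fold higher. For Fgl2 they were Ccr9, Ctla2a, Cxcr6, Lztfl1 and Glrx, with the gut-homing receptor Ccr9 3.65-fold and 2.75-fold higher. For Penk they were Tnfrsf9, Il1r2, Cd81, Klrg1 and Slc7a10, with the costimulatory receptor Tnfrsf9 4.49-fold and 3.16-fold higher. Thinned to 1000 UMIs, 4 of the 5 genes returned for Gzmb and for Fgl2, 2 for Areg and for Penk. At 1000 UMIs Areg and Il10 had enough cells in the rescued library only, so for them the libraries used changed along with the depth.

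For the other effectors the ranking was weaker or less stable. Il10 cells had more Lag3, 17.1-fold in control and 4.51-fold in rescued cells, and more Maf, a transcription factor of the Il10 gene, 4.32-fold and 2.91-fold, but 0 of its 5 genes returned at 1000 UMIs. Lag3 was also higher in Nt5e cells, 2.32-fold in both libraries. Of the genes ranked for Ebi3, the chemokine Cxcl10 led at 5.91-fold and 2.09-fold. Gzma could be ranked in rescued cells only, led by Asb2 at 3.97-fold. Entpd1 had the weakest partners, Oraov1 leading at 2.11-fold and 1.87-fold.

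Lists of markers were read in the same thinned cells and are not a second source. The list of recent stimulation holds Nr4a1, Nr4a3, Egr2, Il1r2 and Tnfrsf9. Several of these were named above as partners of Areg or Penk, so its values for Areg and Penk largely repeat that ranking. A list of resting Treg genes was lower in cells with Il10 than in cells without it, by log2 ratios of -1.73 in control and -2.47 in rescued cells, and likewise in cells with Areg (-1.62 and -1.67) and Penk (-1.60 and -1.61). It was lower in both libraries with every other effector but Entpd1 too, least with Nt5e (-0.45 and -0.37). Cells with Entpd1 stood apart, at 0.021 and 0.020. A list of genes of recent stimulation was higher in cells with Areg (2.63 and 2.44) and Penk (1.93 and 1.39). This was not particular to them. The list was higher with Ebi3 (0.72 and 0.45) and Nt5e (0.78 and 0.46). In rescued cells it was also higher with Il10 (1.37 [1.06 to 1.67]) and Gzmb (0.45 [0.041 to 0.83]). With Fgl2 it stood at 0.15 and -0.13, and both intervals held 0. A list of dissociation stress genes was also higher in cells with Areg, by 0.85 [0.63 to 1.06] and 0.66 [0.48 to 0.84], and its part in Areg was not tested. The list of recent stimulation, in cells with Entpd1, stood at -0.41 [-0.87 to 0.017] and -0.44 [-0.71 to -0.18]. Over the whole libraries the resting list was lower in rescued cells by a log2 ratio of -1.23 and the activated list higher by 1.11, and their part in the effector differences was not tested.

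The genes around the effectors, their receptors, processing enzymes, companions and regulators, differed less than the effectors. Of 72 genes listed, 62 were in the table and 48 had at least 100 UMIs. Over all genes with at least 100 UMIs, 1.72% were at least 2-fold higher and 0.992% at least 2-fold lower, with a median log2 ratio of 0.024. Of the 48, 4 were at least 2-fold higher in rescued cells and 0 at least 2-fold lower, and the median log2 ratio was 0.37. The 4 were Prdm1 (1.64 [1.45 to 1.84]), which encodes Blimp-1, a regulator of effector Treg cells; Ahr (1.38 [1.23 to 1.53]), the aryl hydrocarbon receptor; Cpe (1.52 [1.06 to 2.004]), a carboxypeptidase that trims enkephalins; and Tigit (1.503 [1.05 to 1.98]), an inhibitory receptor. With cluster weights the same in both libraries, 1 of the 48 was at least 2-fold higher.

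Among the granzyme genes, serglycin (Srgn), the granule proteoglycan, stood at 0.64 [0.62 to 0.67], and Gzmk had 21 control UMIs, 19 of them in 1 cell, and 4 rescued UMIs. The purine genes divided: the adenosine receptor Adora2a (0.64 [0.49 to 0.79]) and the ATP-gated channel P2rx7 (0.49 [0.38 to 0.59]) were higher in rescued cells, whereas adenosine deaminase Ada (-0.69 [-1.06 to -0.33]) and adenosine kinase Adk (-0.45 [-0.60 to -0.29]), both of which remove adenosine, were lower. Among the cytokine receptors, Il10ra stood at 0.79 [0.64 to 0.93] and Il6st at -0.35 [-0.44 to -0.25]. The amphiregulin-releasing proteases Adam10 and Adam17 stood at 0.19 and 0.0040, and the IL-33 receptor Il1rl1 at 0.46 [0.20 to 0.72].

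Genes of other cell types were found to unequal extents. A CD8 T or NK cell list, of interest for the granzymes, had 293 control and 266 rescued UMIs; its genes were in up to 3.11% of control and 3.01% of rescued thinned cells, and 1 was at 0 in rescued cells. Cd8a had a UMI in none of the thinned control cells and 0.0298% of the rescued ones. The list was higher in control cells with Gzmb than in those without it, by a log2 ratio of 2.25 [0.61 to 3.51] from 5 UMIs in the 29 Gzmb cells, and stood at 0.32 [-2.0 to 1.9] in rescued cells; its part in Gzmb was not tested. The red blood cell list had 4 control and 29 rescued UMIs. Genes of the B cell list were in up to 6.72% of control and 8.01% of rescued cells (Cd79b), with Ms4a1 in none of the control and 0.0894% of the rescued cells. Genes of the myeloid list were in up to 28.0% and 32.5% (Cst3), with Itgam in none of either. The summed B cell and myeloid lists were higher in rescued cells by log2 ratios of 0.28 and 0.26, but each sum was mostly 1 gene. Cd79b had 747 of the 790 rescued UMIs of the B cell list, and Cst3 had 3091 of the 3142 of the myeloid list. Of the 5 genes of each list in the count table, 2 B cell and 3 myeloid genes were higher in rescued cells. The part of these genes in the effector levels was not tested.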

How the data were processed

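The authors aligned the reads with Cell Ranger 3.0 to GRCm38 with a tdTomato sequence added, sorted the cells in repeated passes before loading, and per their methods removed cells with under 1000 molecules and applied a mitochondrial limit, although the median mitochondrial share in the counts was 9.43% in control and 9.06% in rescued cells; Seurat 3.1.5 is named in the submitters' processing notes. The deposited table holds raw UMI counts per cell and gene; cells were assigned to libraries by the prefix of their names. A deposited table of normalized values was not used. No counts were filtered here.

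The 9 effectors and all lists were chosen with earlier results of these data known. Counts were summed per library; intervals are exact Poisson, Clopper-Pearson and conditional binomial at 95%. The highest level that a count of 0 still allows (3 counts) was 0.194 CPM in control and 0.193 CPM in rescued cells. Shares, pairs and partners used 1 random thinning to 2000 UMIs (65 control and 33 rescued cells were shallower); unthinned shares were 1.10% and 3.24% for Il10, 8.50% and 17.7% for Ebi3, 0.220% and 2.39% for Gzma, 1.40% and 3.27% for Gzmb, 1.76% and 3.60% for Areg, 9.33% and 32.1% for Fgl2, 43.9% and 52.1% for Nt5e, 10.9% and 17.7% for Entpd1, and 4.13% and 6.58% for Penk. Clusters used scanpy 1.11.5 (2000 variable genes, 30 components, 15 neighbours, Leiden resolution 1). Scrublet marked 2 control and 1 rescued cells, too few to have worked, so possible doublets were left out only in alternatives. Partner genes needed 50 UMIs and 20 effector cells in a library, and the 5 with the highest lower bound of the ratio were named, without the effectors and mitochondrial, ribosomal, immunoglobulin and T cell receptor genes; otherwise the 9 effectors and genes of the lists were named. Genes were annotated with GENCODE M21, and promoters with RefSeq. The scripts were tested on simulated data. No gene was tested, as each group is 1 library.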

Additional observations from a re-analysis of the deposited data

Results flagged for a closer look

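Penk depended on tdTomato in opposite directions in the 2 libraries: cells with 4 or more tdTomato UMIs stood above cells with none by a log2 ratio of 1.41 in control and below them, at -0.24, in rescued cells. Among cells with 0 tdTomato UMIs, rescued cells stood above control cells by 1.17. Among cells with 4 or more they stood below control cells, at -0.48. Entpd1 also had opposite signs, -0.32 in control and 0.029 in rescued cells, but both intervals held 0. With 1 library per group these differences were not tested, and the control value for Penk turned to -0.28 when both transcripts were read at 2000 UMIs per cell. By that reading both signs of Entpd1 were reversed, at 0.63 in control and -0.40 in rescued cells.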

How the results depend on the processing

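No paired analysis was possible because with a single library on either side no replicate number exists. Of 423 values computed under another setting, for summaries and for single genes and pairs, 362 stayed within their counting interval, or for counts within 1.5-fold. Giving each cluster the same weight in both libraries left 3 effectors and 1 pathway gene at least 2-fold higher and brought the median log2 ratio to 0.40, and turned Nt5e to -0.067. An expectation taken within clusters gave 1.25 for control cells with 3 or more effectors. Without the 3.5% of cells with the most UMIs the median was 1.28. At 1000 UMIs per cell 7 effectors, against 4 at 2000 UMIs, had a share at least 2-fold higher, 1 control and 3 rescued pairs were above 1.5-fold, 2 rescued pairs were under it, Gzmb with Fgl2 in rescued cells stood at 0.924, and 18 of 45 partner genes returned, with Il10 and Areg then ranked in rescued cells alone. As counted within 20 bins of depth, 9 control pairs were above and 2 under 1.5-fold, and the mean over all thinnings to 2000 UMIs gave 1 rescued pair under it, Gzmb with Nt5e at 0.633 [0.351 to 1.03]; the intervals of all these pairs below independence held 1. With 2 or more tdTomato UMIs at 2000 UMIs per cell, 1 effector of rescued cells was at least 2-fold higher, against 2, and Penk in control cells turned to -0.28. The settings for the pathway genes and those without the richest cell of a gene were added after seeing the data. Depth limits the pairs of Il10, Gzma, Gzmb and Areg most, since 23 control and 10 rescued pairs had under 3 expected cells.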
